A study of Mus musculus with 6 samples.

Results

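The genes described here are 10 smooth-muscle type contractile genes, Acta2, Actg2, Tagln, Cnn1, Cnn2, Myl9, Tpm1, Tpm2, Myh9 and Srf, chosen by symbol from the 18182 genes of the series. They were measured by RNA sequencing in red fluorescent protein-labelled LLC cells (LLC-RFP), the mouse Lewis lung carcinoma line, sorted by flow cytometry from tumors in wild type C57BL/6 mice. In 3 libraries the mice had received LLC-RFP alone subcutaneously (LLC alone), and in the other 3 they had received LLC-RFP together with BMSCs, bone marrow-derived mesenchymal stem cells of C57BL/6 mice (LLC with BMSCs). All 6 libraries thus come from 1 tumor line, and the BMSCs are not stated to carry the fluorescent protein. The mice of the study's allograft experiments were 6 weeks old and female, and the account of the sequenced cells repeats no age. The sources also do not say whether a library is 1 mouse or a pool, so the p-values measure only the spread between these libraries, which may be technical. The depth was 33476347 to 46189113 estimated counts per library. LLC alone replicate 3 stood apart from the other libraries of its group in its trend over gene length, and values without it are given where it changed a result. The libraries of LLC with BMSCs all had the opposite trend, so leaving out that library does not remove the difference in trend between the groups.

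Contraction in smooth muscle rests on filaments of actin and tropomyosin that are pulled by myosin II, which is switched on when its regulatory light chain is phosphorylated. Calponin and transgelin bind these filaments. Many of the genes are targets of serum response factor (SRF), which binds a short DNA element called the CArG box and works with cofactors of the myocardin family. Cells that are not muscle use sister genes for stress fibers, adhesion and migration, and several of the 10 genes are active in most cell types.

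Across the 10 genes, Acta2, Myl9, Myh9 and Cnn2 rose in LLC with BMSCs, Tpm2 fell slightly, and Tagln, Tpm1 and Srf did not pass the test. The fitted changes of the 4 that rose ran from 1.51-fold for Cnn2 to 17.9-fold for Acta2 (edgeR quasi-likelihood test, Benjamini-Hochberg adjusted p under 0.05). Actg2 and Cnn1 were too low to be tested. Of the 13353 genes tested in the whole table, 31.5% were called higher and 31.3% lower, and 62.9% were called in either direction, against which the 5 calls among the 8 tested genes are to be read. The median log2 fold change was 0.49 over the 8 tested genes and 0.01 over all tested genes. On the scale of normalized counts the groups did not overlap in 5 of the 8 genes with higher values (36.7% of all tested genes) and in Tpm2 with lower values (34.6%). Acta2 and Myl9 exceeded a log2 fold change of 1, which 8.65% of all tested genes did with a call, and ranked 236 and 462 by it. Acta2 passed the filter on low counts only through the libraries of LLC with BMSCs. This favoured its call and its place in the counts above in advance. Neither those counts nor the median stand for all 10 genes.

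The 10 genes spanned more than 4 orders of magnitude in level, which is given here as FPKM, a unit scaled to both library total and transcript length that allows genes to be compared. In LLC alone, Tpm1 averaged 374.9 ± 13.8 FPKM (SD, n = 3) and lay above 98.9% of the genes of the series, whereas Acta2 averaged 0.0333 ± 0.0208 FPKM and lay above 20.7% of them. Tpm1, Myh9, Tpm2, Cnn2 and Srf all exceeded 10 FPKM in every library. Myl9, Acta2, Tagln, Actg2 and Cnn1, which include the classical markers of differentiated smooth muscle, stayed under 2 FPKM in every library. In LLC alone, neighbours in this order did not separate for Cnn2 and Srf, nor among Actg2, Acta2 and Cnn1. In LLC with BMSCs all 10 genes took separate ranges, in the order Tpm1, Myh9, Tpm2, Cnn2, Srf, Myl9, Acta2, Tagln, Actg2 and Cnn1. Acta2 thus lay below Tagln in LLC alone and above it in LLC with BMSCs.

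**Figure D1:**
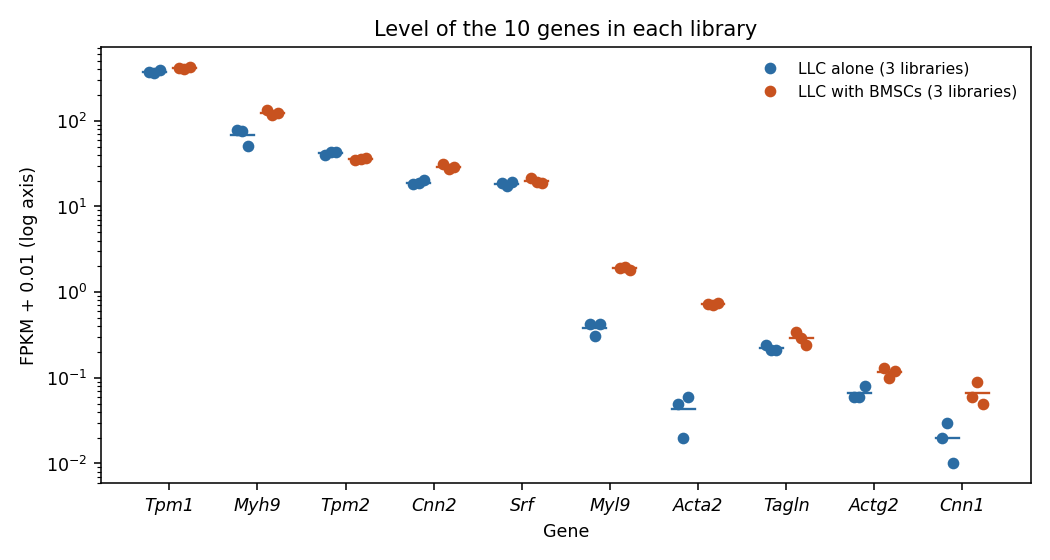
The level of the 10 genes in each library as FPKM + 0.01 on a log axis, with LLC alone in blue, LLC with BMSCs in orange, a point per library and a line at each mean. The points of Acta2 and Myl9 lie well apart between the groups, at 0.01 to 0.05 against 0.69 to 0.73 FPKM and at 0.30 to 0.41 against 1.81 to 1.98 FPKM, whereas those of Tagln and Srf overlap or touch.

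The sequences upstream of 4 of these genes are shown because they hold the CArG box that SRF binds. The RefSeq promoter table (GRCm38.p6) held 8 of the 10 genes and none of Actg2 and Tagln. In the 250 bases before the start, an exact CArG box (the pair CC, 6 bases of A or T, the pair GG, which reads alike on both strands) lay upstream of Srf, Cnn2 and Myl9. Acta2 held 2 boxes in which 1 of the 6 inner bases was G or C, and Myl9 held 1 such box beside its exact one. Cnn1, Tpm1, Tpm2 and Myh9 held neither form in this window. Of all 32851 promoters of this length, 1.47% held the exact box and 7.24% a box with 1 changed inner base. Capitals mark the boxes, a match is a description of the letters only, and each sequence runs 5′ to 3′ on the gene's strand up to the base before the start.
Acta2, chr19:34255374-34255623, minus strand: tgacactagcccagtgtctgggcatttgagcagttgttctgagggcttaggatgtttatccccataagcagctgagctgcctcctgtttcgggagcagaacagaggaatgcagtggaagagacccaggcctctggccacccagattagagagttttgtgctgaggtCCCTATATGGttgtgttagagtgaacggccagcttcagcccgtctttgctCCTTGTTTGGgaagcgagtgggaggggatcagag
Myl9, chr2:156775214-156775463, plus strand: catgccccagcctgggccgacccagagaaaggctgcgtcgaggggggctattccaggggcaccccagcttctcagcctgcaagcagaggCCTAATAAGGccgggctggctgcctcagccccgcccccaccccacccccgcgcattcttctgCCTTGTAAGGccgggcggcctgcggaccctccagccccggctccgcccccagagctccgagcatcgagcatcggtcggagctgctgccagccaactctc
Cnn2, chr10:79988350-79988599, plus strand: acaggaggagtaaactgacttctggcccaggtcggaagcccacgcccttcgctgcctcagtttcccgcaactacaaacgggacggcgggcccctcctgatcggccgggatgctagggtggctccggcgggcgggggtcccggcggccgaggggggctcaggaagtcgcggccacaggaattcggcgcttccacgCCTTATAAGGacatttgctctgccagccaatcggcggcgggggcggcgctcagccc
Srf, chr17:46556163-46556412, minus strand: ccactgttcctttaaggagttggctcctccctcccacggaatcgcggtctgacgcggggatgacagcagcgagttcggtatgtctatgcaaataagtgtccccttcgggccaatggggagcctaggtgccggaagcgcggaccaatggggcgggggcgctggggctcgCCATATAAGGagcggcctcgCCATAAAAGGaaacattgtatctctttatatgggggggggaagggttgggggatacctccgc
In Acta2 the boxes began 84 and 34 bases before the start, in Myl9 161 (exact) and 99 bases before it, in Cnn2 56 bases, and in Srf 82 and 62 bases before it.

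Among the actins, Acta2 encodes smooth muscle alpha-actin, a common marker of smooth muscle cells, pericytes and myofibroblasts. It was listed at 0.04, 0.01 and 0.05 FPKM in LLC alone replicates 1, 2 and 3, and at 0.71, 0.69 and 0.73 FPKM in LLC with BMSCs. The 3 libraries with BMSCs were close to each other and all far above the others. In counts this was 5, 1 and 6 against 79, 76 and 80. The fitted log2 fold change was 4.16 ± 0.29 (SE), with an adjusted p of 1.45e-05. Acta2 had entered this test only through the libraries of LLC with BMSCs. The depth-scaled ratio of the summed counts was 18.3, with an exact 95% interval of 10.3 to 36.0 that covers counting error only. Leaving out any 1 library kept the log2 fold change between 3.84 and 4.50.

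Actg2, the gamma-actin of visceral smooth muscle, had 3, 2 and 4 counts in LLC alone and 7, 5 and 6 in LLC with BMSCs. Its groups did not overlap, as in 71.3% of the tested genes in either direction, but the ratio of 1.87 had an interval of 0.80 to 4.73. With no filter on low counts, edgeR gave Actg2 a log2 fold change of 0.89 ± 0.46 (adjusted p = 0.182) and DESeq2 one of 0.92 ± 0.89 (adjusted p = 0.396). limma on log2(FPKM + 1) called it (adjusted p = 0.0130) at a difference of 0.07 on that scale, so the verdict on Actg2 depended on the tool. The 2 cytoplasmic actins carried nearly all actin RNA, and Acta2 and Actg2 together stayed under 1% of it in every library. Summed over Actb, Actg1, Acta1, Acta2 and Actg2, the actin genes held 1539 ± 83.0 FPKM in LLC alone and 1857 ± 106 in LLC with BMSCs. Acta2 made up 0.0021% ± 0.0013 of that sum in LLC alone and 0.0383% ± 0.0025 in LLC with BMSCs. Actb rose by a log2 fold change of 0.24 ± 0.07 (adjusted p = 0.0162) and Actg1 by 0.27 ± 0.07 (adjusted p = 0.0135), and both calls depended on single libraries. Actb was not called without LLC alone replicate 2 (adjusted p = 0.0528) or without LLC with BMSCs replicate 1 (0.0597), and Actg1 not without LLC alone replicate 1 (0.0504). Acta1, the skeletal muscle actin, was at 0.11 to 0.17 FPKM in LLC alone and 0.16 to 0.26 in LLC with BMSCs, with a log2 fold change of 0.38 ± 0.33 (adjusted p = 0.369). Actb and Actg1 had counts that were not whole in all 6 libraries, as happens where reads are divided among near-identical genes. Acta2 and Actg2 had whole counts in all 6. Actc1, the cardiac actin, was not analysed here.

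Among the motor genes, Myl9 encodes a regulatory light chain of myosin II that is abundant in smooth muscle. Its level was 0.41, 0.30 and 0.41 FPKM in LLC alone and 1.91, 1.98 and 1.81 in LLC with BMSCs. Each library with BMSCs exceeded each without by more than 4 times. The log2 fold change was 2.31 ± 0.17 (adjusted p = 2.37e-05) and stayed between 2.19 and 2.38 with any 1 library left out. Myl9 nevertheless remained a small part of its family. It held 0.116% ± 0.018 of the summed FPKM of Myl9, Myl12a and Myl12b in LLC alone and 0.689% ± 0.038 in LLC with BMSCs, and the rest belonged to the 2 light chains used outside muscle. The family's sum was 323 ± 27.0 FPKM in LLC alone and 276 ± 6.67 in LLC with BMSCs, the direction opposite to that of Myl9. Myl12b fell by 0.53 ± 0.08 on the log2 scale (adjusted p = 7.59e-04) and Myl12a by 0.21 ± 0.07 (adjusted p = 0.0370). The counts of both were not whole in any library, as happens where reads are divided among near-identical genes.

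Myh9 encodes the heavy chain of non-muscle myosin IIA, the main motor of stress fibers. It was at 79.0, 76.6 and 51.1 FPKM in LLC alone and at 133, 116 and 122 in LLC with BMSCs. The groups did not overlap, and LLC alone replicate 3 was the lowest of its group by a wide gap. The log2 fold change was 0.82 ± 0.16 (adjusted p = 0.00235). Myh9 has a long transcript of 7439 bases, and LLC alone replicate 3 was low over long genes in general. In the longest of 5 equal length classes of genes its median deviation from the average library was -0.37 on the log2 scale, and in the shortest class it was 0.31. The libraries of LLC with BMSCs all deviated the other way, by 0.10 to 0.18 in the longest class and -0.19 to -0.09 in the shortest. Without LLC alone replicate 3 the log2 fold change of Myh9 was 0.65 (adjusted p = 2.52e-05), and with each library's trend over gene length removed it was 0.56 (adjusted p = 6.87e-05). Myh9 held 99.6% ± 0.10 of the summed FPKM of Myh9, Myh10, Myh14 and Myh11 in LLC alone and 99.7% ± 0.01 in LLC with BMSCs. Myh11, the smooth muscle heavy chain, was at 0 to 0.03 FPKM in all 6 libraries.

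Among the calponins and transgelins, Cnn2 encodes calponin 2, which is found in many cells outside smooth muscle. Its level was 18.1, 18.6 and 20.2 FPKM in LLC alone and 31.0, 27.6 and 28.6 in LLC with BMSCs. The spread within each group was small beside the gap between them. The log2 fold change was 0.60 ± 0.07 (adjusted p = 2.67e-04), and it ran from 0.54 to 0.65 when any 1 library was left out. Cnn1, the calponin of differentiated smooth muscle, had 1, 1 and 0 counts in LLC alone and 4, 7 and 3 in LLC with BMSCs. The ratio of the sums was 6.55, with a wide exact interval of 1.51 to 59.4. Cnn1 did not pass the filter on low counts, and with no filter its log2 fold change was 2.51 ± 0.84 (adjusted p = 0.0363), which DESeq2 did not call (adjusted p = 0.106).

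Tagln encodes transgelin (SM22-alpha), an early marker of smooth muscle that binds actin. It was at 0.23, 0.20 and 0.20 FPKM in LLC alone and at 0.33, 0.28 and 0.23 in LLC with BMSCs. The lowest library with BMSCs equalled the highest without, and the log2 fold change of 0.39 ± 0.24 did not pass the test (adjusted p = 0.238). The depth allowed a ratio between 0.86 and 2.02, a range that lay below the counting intervals of Acta2 and Myl9, which began at 10.3 and 3.63. Its relative Tagln2 was far more abundant and rose from 167 ± 17.4 to 365 ± 16.9 FPKM, a log2 fold change of 1.11 ± 0.09 (adjusted p = 3.17e-05). Of the summed FPKM of Cnn1, Cnn2, Cnn3, Tagln and Tagln2, Tagln2 held 54.6% ± 1.65 in LLC alone and 67.6% ± 1.12 in LLC with BMSCs. Cnn2 held 6.20% ± 0.33 and 5.38% ± 0.19 of it, a smaller share although its own level rose, and Cnn1 and Tagln together under 1% of it in each group.

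**Figure D2:**
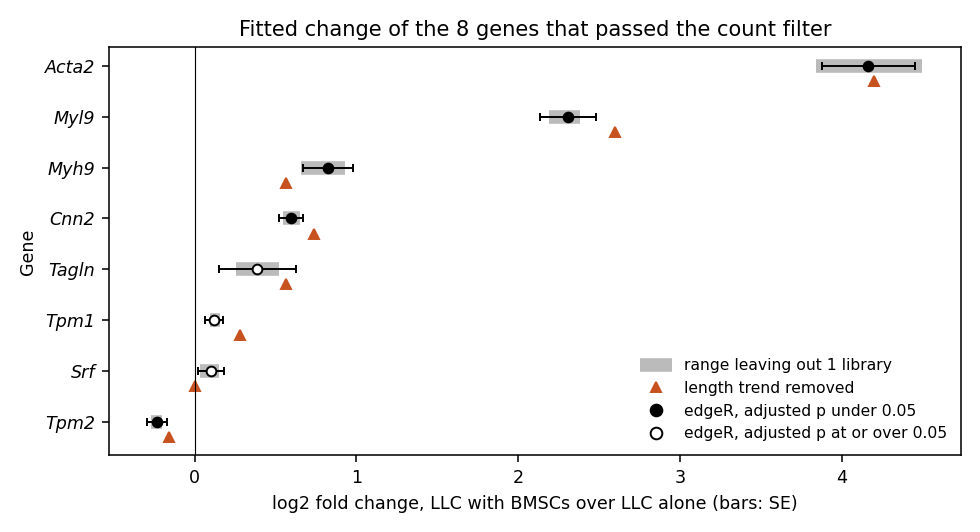
The fitted log2 fold change of LLC with BMSCs over LLC alone for the 8 genes that passed the count filter, with SE bars, filled where the adjusted p was under 0.05, gray bands for the range with 1 library left out and triangles for the fit with the trend over gene length removed. Acta2 at 4.16 and Myl9 at 2.31 lie apart from the rest, and the triangle of Tpm1 lies at 0.28 beside a main value of 0.12.

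The tropomyosins are rod-like proteins that run along actin and set which motors and binding proteins can reach it. Tpm1 was at 373, 362 and 389 FPKM in LLC alone and at 413, 403 and 423 in LLC with BMSCs. The ranges did not overlap, but the gap was small, with a log2 fold change of 0.12 ± 0.06 (adjusted p = 0.0948). This verdict depended on the processing. With the length trend removed the log2 fold change was 0.28 (adjusted p = 2.98e-04), and without LLC alone replicate 3 it was 0.16 (adjusted p = 0.00956). Tpm2, which encodes beta-tropomyosin, was at 39.4, 43.0 and 42.8 FPKM in LLC alone and at 35.3, 36.1 and 37.2 in LLC with BMSCs. It fell by 0.23 ± 0.06 on the log2 scale (adjusted p = 0.00990). It was the only one of the 8 tested genes called lower, and the call was lost without LLC with BMSCs replicate 2 (adjusted p = 0.0539).

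Both genes gave up share within the tropomyosin family. Summed over Tpm1, Tpm2, Tpm3 and Tpm4, the family held 847 ± 19.9 FPKM in LLC alone and 1162 ± 15.5 in LLC with BMSCs. Tpm1 held 44.2% ± 0.59 of that sum in LLC alone and 35.5% ± 0.48 in LLC with BMSCs. Tpm2 held 4.93% ± 0.26 and 3.12% ± 0.05. Neither range overlapped between the groups (two-sided exact permutation test, p = 0.1, which is the lowest value that 3 against 3 libraries allow). Non-overlap was common, since the normalized counts of 71.3% of all tested genes did not overlap in either direction. A background for family shares was not computed. Tpm4, a tropomyosin used widely outside muscle, went from 17.3% ± 0.33 to 28.2% ± 0.44 of the family, with a log2 fold change of its level of 1.14 ± 0.06 (adjusted p = 3.04e-06).

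**Figure D3:**
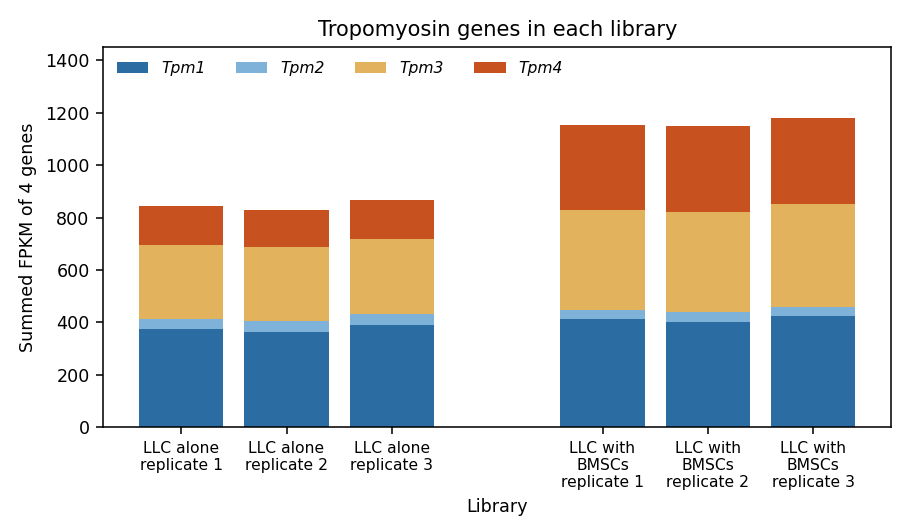
Stacked bars of the FPKM of Tpm1, Tpm2, Tpm3 and Tpm4 in each of the 6 libraries, with the height of a bar giving the family's summed FPKM. The bars of LLC with BMSCs are taller (1162 against 847 FPKM on average), and most of the added height lies in Tpm3 and Tpm4.

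Tpm1 RNA is spliced into many forms, and the deposited transcript values divided the gene among 13 transcripts, of which 10 carried RefSeq identifiers that were matched to GENCODE M21. A pair of alternative internal exons of 76 bases each is used in a mutually exclusive way. They are shown because their use differed between the groups. They match at 43 of 76 bases (56.6%), and capitals mark the 33 bases that differ.
Upstream internal exon, GRCm38 chr9:67032466-67032541, minus strand: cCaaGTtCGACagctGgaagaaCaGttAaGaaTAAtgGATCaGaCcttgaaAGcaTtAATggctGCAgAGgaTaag
Downstream internal exon, GRCm38 chr9:67031951-67032026, minus strand: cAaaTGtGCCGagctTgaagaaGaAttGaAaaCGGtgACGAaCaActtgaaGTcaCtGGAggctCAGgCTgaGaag
Transcripts with the upstream exon held 24.0%, 26.3% and 25.9% of the FPKM of Tpm1 in LLC alone and 35.3%, 36.5% and 38.5% in LLC with BMSCs. The groups were 11.3 percentage points apart on average and did not overlap (two-sided p = 0.1 by the same exact permutation test). In the whole table, 32.8% of 12784 transcript shares of a like kind did not overlap between the groups. Most of this share lay in the transcript NM_001164250, at 89.3 ± 10.7 FPKM in LLC alone and 133 ± 24.9 in LLC with BMSCs. The transcript NM_024427, with the downstream exon, was at 224 ± 9.53 and 225 ± 19.3 FPKM.

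A further class of Tpm1 transcripts starts at an internal exon and encodes shorter proteins of 245 to 248 codons, in place of 281 to 284. This class held 11.1%, 10.7% and 12.0% of the FPKM of Tpm1 in LLC alone and 6.95%, 8.69% and 8.70% in LLC with BMSCs, again with no overlap (p = 0.1 by the exact test). Of the transcript shares in the whole table, 32.8% likewise did not overlap. The upstream one of a pair of alternative second exons, which is the exon typical of smooth muscle, was found in 1 matched transcript. It held 0.0080%, 1.53% and 1.23% of the FPKM in LLC alone and 0%, 2.31% and 2.64% in LLC with BMSCs. A transcript of the same length that the authors assembled was high where this one was near 0, so the 2 are also given as a sum, which was 2.02% ± 0.06 in LLC alone and 2.45% ± 0.17 in LLC with BMSCs. By this measure the smooth muscle second exon was rare in Tpm1 RNA of both groups.

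Tpm2 was divided among 3 transcripts. NM_001277875 held 57.2%, 59.0% and 57.4% of the FPKM of Tpm2 in LLC alone and 41.3%, 39.8% and 39.7% in LLC with BMSCs. NM_001277876, of equal length, held 27.7%, 27.7% and 27.4% in LLC alone and 42.5%, 47.8% and 47.5% in LLC with BMSCs. The order of the pair was thus inverted, and neither range overlapped (p = 0.1 for each by the exact test). In the whole table, 32.8% of 12784 transcript shares did not overlap between the groups. In absolute terms NM_001277875 was at 24.2 ± 1.47 FPKM in LLC alone and 14.6 ± 0.21 in LLC with BMSCs, and NM_001277876 at 11.5 ± 0.53 and 16.7 ± 1.45 FPKM. The small fall of Tpm2 as a whole thus combined a lower and a higher transcript. NM_009416, the longest, held 14.5% ± 1.08 and 13.8% ± 2.10. The exons by which the Tpm2 transcripts differ were not analysed here, and the transcript values are estimates from short reads.

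**Figure D4:**
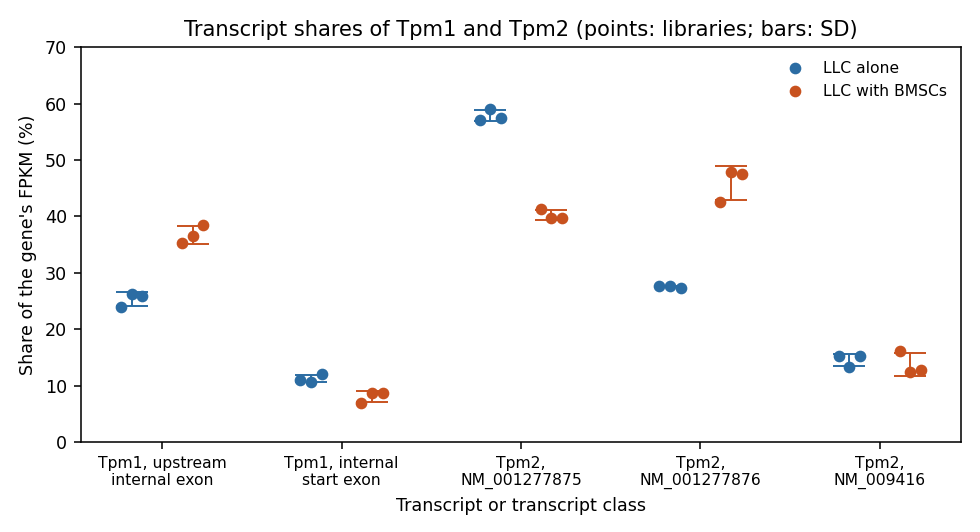
The share of each gene's FPKM in 2 classes of Tpm1 transcripts and in the 3 Tpm2 transcripts, in percent, with a point per library, LLC alone in blue, LLC with BMSCs in orange and bars for the SD around the mean. The 2 Tpm2 transcripts of equal length change order between the groups, and the points of NM_009416 overlap.

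Srf itself, the transcription factor, was at 18.7, 17.2 and 19.2 FPKM in LLC alone and at 21.8, 19.5 and 18.7 in LLC with BMSCs. The groups overlapped, and the log2 fold change was 0.10 ± 0.08 (adjusted p = 0.301). Among the genes of its cofactors, 1 of 6 tested was called higher and 3 lower (66.7% called, beside 62.9% of all tested genes), with a median log2 fold change of -0.22. Fhl2, which encodes a LIM-domain protein that binds SRF, fell from 78.0 ± 7.14 to 32.3 ± 1.24 FPKM, a log2 fold change of -1.30 ± 0.08 (adjusted p = 9.83e-06). Mkl1, which encodes the actin-sensing myocardin-related factor MRTF-A, fell by 0.48 ± 0.12 on the log2 scale (adjusted p = 0.00798), a call that was lost with the closest libraries of each group summed (adjusted p = 0.0747). Its sister gene Mkl2 stood at 0.16 ± 0.17 on that scale (adjusted p = 0.437), with the sign turned when the length trend was removed (-0.12) or LLC alone replicate 3 left out (-0.03). Of the ternary complex factors, Elk1 fell by 0.65 ± 0.07 (adjusted p = 1.64e-04), Elk4 rose by 0.34 ± 0.07 (adjusted p = 0.00280), and Elk3 stood at 0.05 ± 0.06 (adjusted p = 0.475), or at -0.05 with the length trend removed. Myocd, the myocardin gene specific to heart and smooth muscle, was at 0.01 FPKM in LLC alone replicate 2 and listed at 0 in the other 5 libraries.

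The other branch of SRF targets, the immediate early genes, had 7 tested genes, of which 4 were called higher and 1 lower (71.4% called, beside 62.9% of all tested genes). Fos, a subunit of AP-1, went from 0.53 ± 0.10 to 2.43 ± 0.14 FPKM, a log2 fold change of 2.15 ± 0.14 (adjusted p = 1.29e-05). Fosb rose by 1.48 ± 0.10 on the log2 scale (adjusted p = 1.41e-05), and Ier2 fell by 0.31 ± 0.07 (adjusted p = 0.00465). The largest change was that of Egr1, at 6.61 ± 0.48 on the log2 scale (adjusted p = 1.87e-05). It rested on 2, 0 and 0 counts in LLC alone and 85, 69 and 91 in LLC with BMSCs. Egr1 thus passed the filter on low counts only through LLC with BMSCs.

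Of 21 other smooth muscle contractile genes, 17 were tested, and 11 were called higher and 1 lower, with a median log2 fold change of 0.44. Smtn, which encodes smoothelin, went from 15.9 ± 1.09 to 47.5 ± 3.58 FPKM (log2 fold change 1.56 ± 0.08, adjusted p = 3.85e-06). Flna and Actn1, which encode the actin crosslinkers filamin A and alpha-actinin 1, rose by 0.91 ± 0.17 (adjusted p = 0.00218) and 0.76 ± 0.08 (adjusted p = 9.36e-05) on the log2 scale. Of 23 non-muscle actomyosin genes, all tested, 10 were called higher and 4 lower, and the median log2 fold change was 0.19. These are 70.6% of the tested smooth muscle list and 60.9% of the non-muscle list called in either direction, beside 62.9% of all tested genes. Among them Rock1, a kinase that keeps the myosin light chain phosphorylated, rose by 0.88 ± 0.12 (adjusted p = 4.37e-04), Tln1 (talin 1) by 0.58 ± 0.17 (adjusted p = 0.0197) and Diaph1, a formin that builds actin filaments, by 0.55 ± 0.10 (adjusted p = 0.00246). Rock1 went from 6.57 ± 0.96 to 12.3 ± 1.25 FPKM. Its more abundant sister gene Rock2 was not called, at 53.7 ± 9.23 and 53.1 ± 2.18 FPKM (log2 fold change -0.03 ± 0.12, adjusted p = 0.818). Flna, Rock1, Tln1 and Diaph1 were lowest in LLC alone replicate 3, as Myh9 was. With the length trend removed, their log2 fold changes were 0.62, 0.66, 0.28 and 0.34, all still called. Tln1 was no longer called without LLC with BMSCs replicate 1 (adjusted p = 0.0786).

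**Figure D5:**
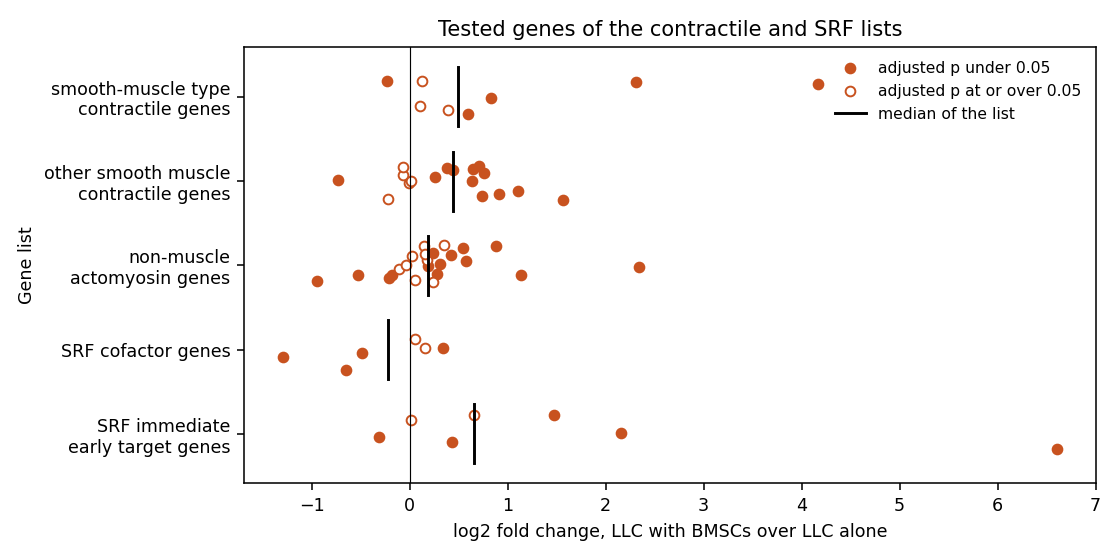
The fitted log2 fold change of each tested gene in 5 lists, filled where the adjusted p was under 0.05, with a black line at each list's median. The smooth-muscle type contractile genes, the other smooth muscle contractile genes and the immediate early genes have medians of 0.49, 0.44 and 0.66, and the SRF cofactor genes have a median of -0.22.

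Markers of other cell types were read beside these genes, because the low ones among them are markers of cells that a sorted fraction could hold. All 10 tested markers of fibroblasts and BMSCs, out of 14 listed, were called higher (100%, beside 31.5% of all tested genes). The summed level of the list went from a range of 336 to 393 CPM in LLC alone to 751 to 799 CPM in LLC with BMSCs. Most of this sum and of its rise was Col3a1, at 41.2 ± 3.82 FPKM in LLC alone and 100 ± 1.48 in LLC with BMSCs. Col1a1, the type I collagen chain, was at 0.01 to 0.02 FPKM in LLC alone and at 1.85 to 2.24 in LLC with BMSCs, and Dcn (decorin) at 0.10 to 0.13 and 6.14 to 6.56 FPKM. Thy1 and Fap were listed at 0 in all libraries of LLC alone and stayed at or under 0.03 FPKM in LLC with BMSCs. Of 10 immune markers, 7 were tested, 6 of them called higher and 1 lower (100% called, beside 62.9% of all tested genes). Their summed level went from 6.73 to 8.24 CPM in LLC alone to 30.7 to 33.3 CPM in LLC with BMSCs. Adgre1, a macrophage marker, was listed at 0 in LLC alone and at 0.42 to 0.56 FPKM in LLC with BMSCs. Cd68, another macrophage marker, was the 1 called lower. It was at 5.14 to 6.12 FPKM in LLC alone and at 2.69 to 3.40 in LLC with BMSCs. Cd3e stayed at or under 0.02 FPKM in every library. Col1a1, Dcn, Lum, Pdpn, Ptprc, Adgre1, Itgam, S100a8 and S100a9 passed the filter on low counts only through LLC with BMSCs. This favoured their higher calls in advance. The part of fibroblasts, BMSCs and immune cells in the rise of Acta2 and Myl9 was not tested. In bulk samples such as these, fewer cells of a type and less RNA per cell cannot be told apart.

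Of the markers of differentiated smooth muscle, Myh11 and Lmod1 were near 0 in both groups, and Smtn and Des were not. Myh11 was at 0 to 0.03 FPKM and Lmod1 at 0.01 to 0.04 FPKM over the 6 libraries, whereas Des was at 1.88 ± 0.23 FPKM in LLC alone and 1.15 ± 0.22 in LLC with BMSCs. Of 12 smooth muscle and pericyte markers, 7 were tested, 4 called higher and 2 lower (85.7% called, beside 62.9% of all tested genes). Notch3, called higher, passed the filter on low counts only through LLC with BMSCs. Of the 12, 4 (Myh11, Lmod1, Smtn and Des) also stand among the contractile genes above. The list had summed levels of 91.3 to 109 CPM in LLC alone and 198 to 231 CPM in LLC with BMSCs, most of the rise being Smtn. Without Smtn the sums were 41.6 to 52.4 and 53.0 to 60.2 CPM. Rgs5, a pericyte marker, was among the higher ones at 0.19 to 0.32 against 0.53 to 0.64 FPKM, and Cspg4, another, was lower at 0.55 to 0.85 against 0.10 to 0.17 FPKM. Of the skeletal muscle markers Acta1 and Mylpf were tested (adjusted p = 0.369 and 0.250), with summed levels of 1.21 to 1.42 and 1.17 to 1.65 CPM. The 1 tested endothelial marker, Pecam1, had an adjusted p of 0.608, and the 5 endothelial markers summed to 0.69 to 0.88 CPM in LLC alone and 0.93 to 1.08 CPM in LLC with BMSCs. Of the epithelial markers, with sums of 158 to 179 and 188 to 196 CPM, Krt8 and Krt18 were tested. Both were called higher (100%, beside 31.5% of all tested genes), and Krt18 passed the filter only through LLC with BMSCs. Krt8 was at 90.3 to 102 and 108 to 113 FPKM, and Epcam and Cdh1 were at or under 0.04 FPKM in every library although the line is named a carcinoma.

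For each tested gene, the 3 genes nearest to it in pattern over the 6 libraries were sought by the root mean square difference of centered log2 CPM, leaving out genes under 100 normalized counts on average. Nearest to Acta2 were Apol9b, Rsad2 and Ass1, at differences of 0.25, 0.28 and 0.30. Nearest to Myl9 were Gbp6, Upp1 and Oaf, at 0.08, 0.09 and 0.12. Cnn2 was followed most closely by Grasp, Syngr2 and Thop1, and Myh9 by Cabin1, Ago1 and Dock9, all within 0.05. Tpm1 lay at about 0.02 from Aplf, Tspan14 and Slc30a6, and Tpm2 at about 0.02 from Dedd, Agk and Ythdf1. Tagln was nearest to Rnf217, Pigs and Nckipsd, at 0.07 to 0.08, and Srf to BC037034, Alg12 and Tfe3, at 0.02 to 0.03. None of these neighbours belonged to the contractile lists. That outcome carries little weight, since those lists are a small part of the 10594 or 10595 candidates. The limit on counts also kept out their low genes, such as Acta2 and Myl9.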

How the data were processed

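The deposited values are the authors' estimated counts for genes and transcripts, which need not be whole (21.9% to 23.2% of the genes in a library were not), and FPKM values, which divide by length and library total. The sample labels list HISAT, StringTie, Cufflinks and GATK and the build mm8, and their roles and versions are not given in the sources used here. Counts were rounded and tested with edgeR 4.0.16 in R 4.3.3 (TMM, default filter on low counts, quasi-likelihood test, Benjamini-Hochberg adjustment over 13353 genes, threshold 0.05). The SE was obtained by dividing the log2 fold change by the square root of F, and normalized counts are CPM scaled to the mean library size. DESeq2 1.42.0, limma 3.58.1 on log2(FPKM + 1), lowess offsets for gene length and GC content, a replicate block and leaving out each library were the alternatives, and the scripts were tested on simulated data. Shares of transcripts were compared by exact permutation tests (scipy). The 10 genes and all lists were chosen with earlier results of these data known. Beside the 10 genes, the text names the cytoplasmic and sarcomeric actins, the SRF cofactors and, from each related list, up to 4 genes with the largest absolute log2 fold change among those called that averaged 100 normalized counts or more, as well as the 3 nearest in pattern. Egr1, Rock2, and other genes from the families and marker lists, were named after their values were seen. Actc1, Pdlim3, Myh1, Myh2, Myh4, Myod1 and Myog were not analysed here. All 6 pairs of libraries within a group differed by more than counting noise (chi-square per degree of freedom 3.03 to 60.4), so none was merged as a repeat deposit. LLC alone replicates 1 and 2 (4.79) and LLC with BMSCs replicates 2 and 3 (3.03) were closer than the other pairs (19.1 to 60.4), and whether the libraries are independent is not known. Same-numbered libraries did not deviate together (correlations of 0.08, -0.11 and 0.06), so they were not treated as pairs.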

Additional observations from a re-analysis of the deposited data

How the results depend on the processing

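No called result changed direction, while the uncalled values of Srf (-0.01), Mkl2 (-0.12) and Elk3 (-0.04) turned negative with length and GC trends removed. Acta2, Myl9, Myh9 and Cnn2 were called higher, and Tagln and Srf not called, wherever they were tested. The number of the 10 genes called higher, 4 in the report, ran from 3 to 6 over all alternatives and from 4 to 5 with 1 library left out. It was 3 with at least 10 counts required in every library or a filter on FPKM, which Acta2 did not pass, 5 with the length trend removed, by Tpm1, and 6 with limma on log2(FPKM + 1) without a filter, which added Actg2 and Cnn1. The number called lower, 1 in the report, was 0 with the closest libraries of each group summed and ran from 0 to 1 with 1 library left out. The cause of these losses was not tested. With a replicate block, 4 genes were called higher and 1 lower, and 4161 and 4058 over all genes, so it changed no call among the 10. The 4210 genes called higher overall ran from 3364 to 4758, and the 4183 called lower from 3301 to 4573. Of the other 44 named genes tested, 34 stayed on their side of the threshold under every alternative. The correction for length and GC content and leaving out libraries for transcript shares were chosen after seeing the data. No share difference moved by over 1 SD without a library. With 3 libraries per group such a move cannot occur, so that check could not fail. On log2(FPKM + 1) without a filter the value of Acta2 was 0.73 and that of Myl9 1.08, since the pseudocount understates low genes. Depth limits Actg2, Cnn1 and Tagln, with at most 22 counts in a library.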
